A study of Homo sapiens with 17 samples.

Results

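Long non-coding RNAs (lncRNAs) that the deposited table lists by Ensembl identifier alone, with no gene name, were examined for binding to the poly(A) binding proteins and for contact with the ribosome. A gene was taken if its biotype was lncRNA, its name was empty and its average TPM (transcript abundance scaled by length and library size) was at least 5 in each of the 2 IPs, of PABPN and of PABPC. This gave 212 of the 18869 genes in the table. They were therefore selected on their TPM in the 2 IPs, and those TPM values are given below as a description. Of 2970 lncRNAs in the table, 1769 had no name, all 1769 with an empty name and 0 with a clone name. No TPM was given for 461 of the 1769. Of the 1308 with a TPM, 752 were below 5 in both IPs, 339 reached 5 with PABPN only and 5 reached it with PABPC only.

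PABPN is found mainly in the nucleus and stimulates poly(A) polymerase. PABPC is mainly cytoplasmic, contacts the initiation factor eIF4G and takes part in the control of RNA decay. LncRNAs are transcribed by RNA polymerase II and most are capped, spliced and polyadenylated like mRNAs, but they have no long conserved reading frame. Many are kept in the nucleus or turned over quickly, while others reach the cytoplasm and can meet ribosomes there.

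The study used HEK293T cells, a line long established from human embryonic kidney, carrying a construct brought in by lentivirus and switched on with 50 ng/ml doxycycline for 24 h. RPS2-STAMP cells made APOBEC1, an enzyme that edits C to U, joined to RPS2, a protein of the small ribosomal subunit, so that RNAs near ribosomes gain edits. Control-STAMP cells made APOBEC1 alone. After crosslinking with 0.1% formaldehyde, RNA was sequenced in 17 samples, from the Input and from IPs of PABPN and PABPC. RPS2-STAMP had 3 samples of each fraction, and Control-STAMP had 3 of the Input, 3 of the PABPN IP and 2 of the PABPC IP. The editing enzyme was overexpressed in a single transformed line. The paper's text says that IPs were made from the cytoplasm and calls the Input cytoplasmic too, while the sample labels name no fractionation.

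Editing is given as normalized EPKM, the edits in RPS2-STAMP scaled by transcript length and library size, after subtraction of the control, with no value below 0. Values with PABPN and with PABPC are those of the PABPN IP and the PABPC IP. Whether a listed 0 stands for no edits or for a difference that fell below 0 is not given in the sources used here. Every EPKM and TPM is 1 value per gene and fraction, pooled by the authors over samples, so no SD, n or p-value can be given and no difference between fractions has a replicate check. The files give no read counts, and the depth and the number of edits behind each value are unknown. TPM adds exonic and intronic reads, and its sum over the table was 854272 in the Input, 995724 with PABPC and 975719 with PABPN.

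Markers of the line were looked at first. VIM, the intermediate filament protein vimentin, had a TPM of 184 in the Input, and LIN28B, an RNA-binding protein of embryonic cells, had 37.7. The keratin gene KRT18 had 24.8 and the neurofilament gene NEFM 8.998, whereas KRT8 had 2.16 and the kidney transcription factor PAX2 0.797. Of the markers of other cell types, the fibroblast collagen gene COL1A1 had 1.90 in the Input, and no value was found under the symbols PTPRC, ALB and PECAM1.

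The unnamed lncRNAs were short in exonic length and most had few exons. By identifier, 211 of the 212 were found in GENCODE release 44, which uses the same genome build, hg38, and 1 was not (ENSG00000271870, a gene singled out here for its absence and not for its values). The median exonic length was 1355 bases, with quartiles of 701 and 2346.5, against 2745 for the 287 named lncRNAs of the same TPM filter and 5241 for the 9607 protein-coding genes (PCGs). A single exon made up the longest transcript of 90 members, 2 exons that of 92 and 3 or more that of 29. The share with 1 exon was 42.7% of members, 25.4% of named lncRNAs and 6.06% of all genes. Median exon numbers were 2, 2 and 7 in the same order. In release 44 a symbol had been given to 65 of the 212. Of these symbols, 31 end in DT, for a divergent transcript that starts next to a gene on the opposite strand, 26 end in AS and a number, for antisense, and 6 begin with LINC, for intergenic.

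Most members lay over or beside PCGs, and named lncRNAs are set beside them by class below. A PCG on the opposite strand was overlapped by 123 members, 40 of them wholly inside it, and a PCG on the same strand by 21. For 47 members, a PCG start on the opposite strand lay up to 2000 bases upstream of the member's own start, called a divergent start here. Opposite-strand starts downstream of the member's start were not counted. Some genes with a symbol in DT, such as GNB1-DT, therefore fall under opposite-strand overlap below. No PCG on either strand was overlapped by 76 members. For counting, the authors took out of the annotation the stretches shared by more than 1 gene, so that TPM comes from the rest of each gene. The kit kept strand, but the strand setting in counting, whether genes on opposite strands were treated as sharing a stretch, and whether EPKM used the same annotation are not given in the sources used here.

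To describe each member once, the 212 were put into 6 classes, taken in this order. A small RNA gene lay inside 7 members, 20 others overlapped a PCG on the same strand, 44 had a divergent start, 92 overlapped a PCG on the opposite strand, 48 overlapped none, and 1 was not in the annotation. Small RNA, same-strand, divergent, opposite-strand and no-overlap classes held 3.30%, 9.43%, 20.8%, 43.4% and 22.6% of members. Of named lncRNAs they held 13.9%, 6.62%, 25.4%, 41.8% and 12.2%. The classes are used below for both TPM and EPKM.

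The ends of the transcripts were compared, because both proteins bind poly(A) tails, which are added a short way past the hexamer AATAAA or its variant ATTAAA. One of these was present on the transcript strand in the last 50 bases of 112 of 211 members (53.1%), of 55.4% of named lncRNAs, of 74.9% of PCGs and of 72.1% of all genes. AATAAA was present in 94 members and ATTAAA in 25. Members with a hexamer and the 99 without had close TPM ratios, with median log2 PABPC IP over PABPN IP values of -0.72 and -0.83. Their median EPKM was 0.0118 and 0.0200 with PABPC and 0.0196 and 0.0184 with PABPN. A match says only that these letters are in the window of the annotated end.

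The last 50 bases of 8 members on which the results below turn are shown from hg38, with the hexamers in capitals. The first 6 hold a hexamer and the last 2 hold none.
ENSG00000278730: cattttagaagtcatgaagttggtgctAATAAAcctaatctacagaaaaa
ENSG00000254682: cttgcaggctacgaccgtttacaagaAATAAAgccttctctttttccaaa
ENSG00000263731: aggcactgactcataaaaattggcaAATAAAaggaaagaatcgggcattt
MBTPS1-DT: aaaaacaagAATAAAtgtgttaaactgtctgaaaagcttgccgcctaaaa
ENSG00000272004: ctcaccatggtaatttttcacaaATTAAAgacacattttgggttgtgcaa
JTB-DT: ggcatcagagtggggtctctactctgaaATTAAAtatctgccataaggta
ENSG00000267698: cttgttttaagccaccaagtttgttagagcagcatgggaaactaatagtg
ENSG00000230149: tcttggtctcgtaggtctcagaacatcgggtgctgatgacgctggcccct
Each lies in the last exon of the transcript that ends farthest downstream. The windows are chr17:68129537-68129586 on the plus strand for ENSG00000278730, chr11:71452108-71452157 on the plus strand for ENSG00000254682 and chr17:81878425-81878474 on the minus strand for ENSG00000263731. They are chr16:84117522-84117571 for MBTPS1-DT, chr1:1662553-1662602 for ENSG00000272004 and chr1:153979111-153979160 for JTB-DT, all on the plus strand. For ENSG00000267698 the window is chr19:36045923-36045972 and for ENSG00000230149 chr22:38738941-38738990, both on the plus strand. After the last hexamer, 17 bases remained in ENSG00000278730, 18 in ENSG00000254682, 19 in ENSG00000263731, 35 in MBTPS1-DT, 21 in ENSG00000272004 and 16 in JTB-DT.

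In TPM, the unnamed lncRNAs were low in abundance and stood higher with PABPN than with PABPC. Their median TPM was 20.6 with PABPN, with quartiles of 12.1 and 31.7, 9.81 with PABPC, with quartiles of 6.82 and 16.1, and 5.04 in the Input, with quartiles of 3.31 and 7.67. PCGs had medians of 38.4, 28.9 and 15.8 in the same order, and named lncRNAs 18.3, 10.0 and 4.91. TPM was higher with PABPN for 182 members (85.8%), beside 58.9% of all genes, and higher with PABPC for 30, beside 41.1%. The median log2 ratio of PABPC IP over PABPN IP, with 0.5 added to each TPM, was -0.77 for the members, -0.59 for named lncRNAs, -0.19 for PCGs and -0.22 for all 10391 genes of the same filter. At least 2-fold higher TPM with PABPN was seen for 82 members (38.7%), where 22.5% of all genes and 33.4% of named lncRNAs were, and at least 2-fold higher TPM with PABPC for 1 member, where 7.04% of all genes were. Since the rule used both columns, nothing is read from these counts.

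Ratios to the Input were taken over genes filtered on the IPs and not on the Input, which favours ratios above 1. The median over the 10391 genes of the filter was 0.97 for PABPC IP over Input and 1.14 for PABPN IP over Input on the log2 scale, the members had 1.03 and 1.73, and named lncRNAs 1.11 and 1.70. TPM was at least 2-fold higher with PABPN than in the Input for 183 members (86.3%), beside 58.1% of all genes and 89.9% of named lncRNAs, and with PABPC than in the Input for 112 members (52.8%), beside 47.0% and 62.7%. The reverse held for 3 members between Input and PABPC IP and for 1 member between Input and PABPN IP, beside 0.645% and 0.472% of all genes.

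Relative to the median of all genes, the members' median log2 ratio was -0.54 for PABPC IP over PABPN IP, 0.06 for PABPC IP over Input and 0.59 for PABPN IP over Input, where named lncRNAs had -0.37, 0.15 and 0.55. On that scale 62 members were at least 2-fold higher with PABPN than with PABPC and 1 was at least 2-fold lower, beside 16.8% and 13.0% of all genes and 24.7% and 2.44% of named lncRNAs. Against the Input, 57 members (26.9%) were at least 2-fold higher with PABPN and 4 lower, beside 8.68% and 5.22% of all genes and 25.8% and 0.348% of named lncRNAs. For PABPC IP against Input the split turned round with the centring, with 0 members at least 2-fold higher and 7 lower, beside 0.269% and 4.08%. In place of 182, 168 members (79.2%) then stood higher with PABPN, beside 50.0% of all genes and 70.4% of named lncRNAs.

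**Figure D1:**
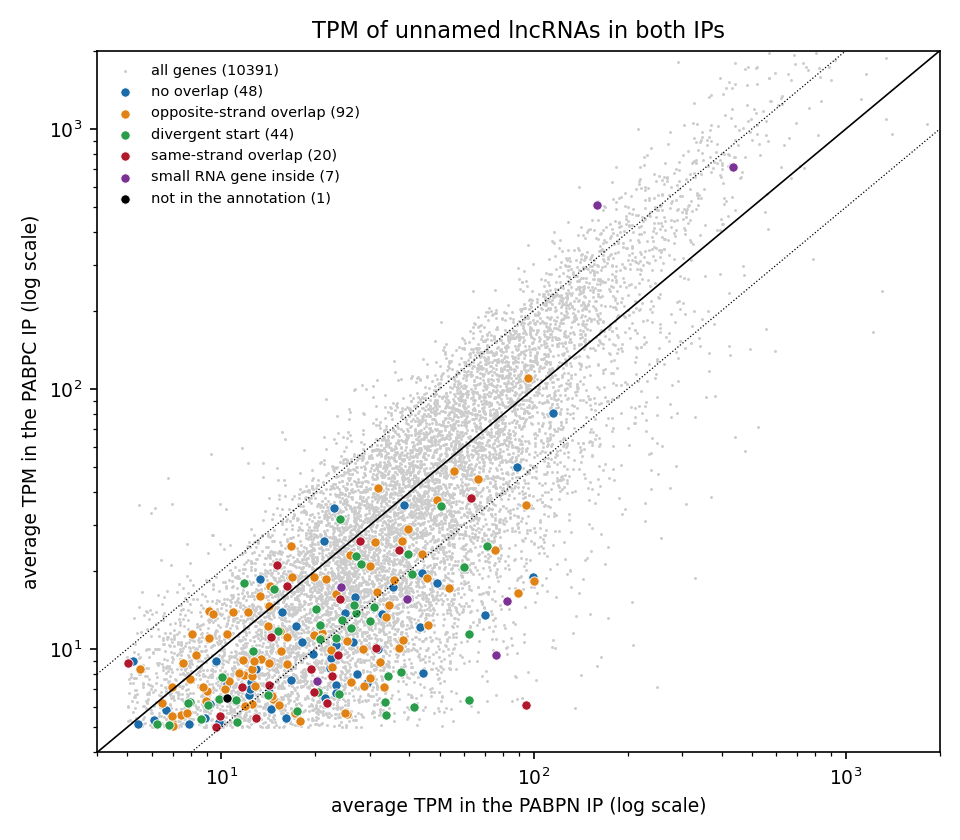
Average TPM of each unnamed lncRNA in the PABPN IP (x axis, log scale) and the PABPC IP (y axis, log scale), coloured by position class, over all genes of the same filter in grey; the solid line is equality, the dotted lines 2-fold, and genes above the axis limits are not drawn. Of the 212 members, 182 lie below the line of equality, and 1 lies above the upper dotted line on the log2(TPM + 0.5) scale.

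The lowest PABPC IP over PABPN IP ratio was that of ENSG00000230149, a spliced gene of 3 exons that overlaps GTPBP1 on the same strand and SUN2 on the other. It had 94.9 TPM with PABPN, 6.11 with PABPC and 3.22 in the Input, a log2 ratio of -3.85. GTPBP1 itself had 73.2, 70.0 and 45.6, a log2 ratio of -0.065. Whether reads of GTPBP1 enter the value of the lncRNA was not tested. JTB-DT, whose start lies 53 bases from that of JTB, had 62.0, 6.37 and 3.94 TPM in the same order, a log2 ratio of -3.19. Its neighbour JTB had 764, 1207 and 409 TPM, with a log2 ratio of 0.66. ENSG00000248367, divergent from the kinase gene MAPK9 at 79 bases, had 41.5 TPM with PABPN and 5.96 with PABPC. ZNF778-DT had 33.7 and 5.56, and the remaining member of the lowest 5, ENSG00000276216, is described with the small RNA genes.

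At the other end, ENSG00000279738 was the only member at least 2-fold higher with PABPC, with 511 TPM there, 160 with PABPN and 206 in the Input. It is annotated as a single exon of 19416 bases that overlaps EIF3L, a translation initiation factor subunit, on the same strand. The small RNA gene RNU6-900P lies inside it, so it is in the small RNA class. EIF3L had 629, 217 and 245 TPM in the same order, and log2 ratios of PABPC IP over PABPN IP were 1.67 for the lncRNA and 1.53 for EIF3L. By the authors' rule, stretches shared by 2 genes were left out of the counting annotation, which came from an earlier release than the positions given here. Whether reads of EIF3L enter the value of the lncRNA was not tested. ENSG00000243389, which overlaps CHCHD5 on the same strand, had 8.86 and 5.02 TPM with PABPC and with PABPN, with CHCHD5 at 33.3 and 22.2. ENSG00000272079, with no overlap, had 8.996 and 5.22, and ENSG00000269425, opposite STAP2, had 14.0 and 9.12.

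Among the most abundant members, 2 of the 5 with the highest mean TPM of the IPs overlapped no PCG and held no small RNA gene. ENSG00000278730, a single exon of 2921 bases on chromosome 17, had 115 TPM with PABPN, 80.5 with PABPC and 32.1 in the Input. ENSG00000234160, of 289 exonic bases on chromosome 9, had 88.5, 49.9 and 45.6. Both were listed at 0 EPKM in both IPs, and at 0.0153 and 0.0832 in the Input. ENSG00000254682, opposite the cholesterol synthesis gene DHCR7, had 96.3 TPM with PABPN, 110 with PABPC and 35.6 in the Input, and was above 0 EPKM in all 3 fractions.

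Of the 7 members that hold a small RNA gene, 3 had a higher TPM in the Input than in either IP. ENSG00000282885 on chromosome 14 contains RN7SL2, a gene for 7SL, the RNA of the signal recognition particle, and had 17600 TPM in the Input, 711 with PABPC and 436 with PABPN. This gene alone made up 90.7% of the members' summed TPM in the Input, 17.7% with PABPC and 7.26% with PABPN. RN7SL1, the other main 7SL gene, had 128398 TPM in the Input, 5547 with PABPC and 5066 with PABPN. ENSG00000262202 on chromosome 17, with the U3 small nucleolar RNA gene SNORD3D inside, had 130 TPM in the Input, 82.4 with PABPN and 15.2 with PABPC. ENSG00000276216 on chromosome 1, with the U1 variant gene RNVU1-14 inside, had 121, 76.1 and 9.51. Whether these reads come from the small RNA or from the lncRNA was not tested.

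Summed over members, TPM was 19415 in the Input, 4028 with PABPC and 6004 with PABPN. Without ENSG00000282885, a choice made after its value was seen, the sums were 1815, 3316 and 5568. These were 0.212%, 0.333% and 0.571% of the TPM summed over all genes, filtered or not. ENSG00000282885 and RN7SL1 were kept in that total. RN7SL1 alone had 128398 TPM in the Input, so nothing is read from a comparison of these shares between fractions.

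The rule's threshold fell among genes of similar values. The 3 members nearest above it were ENSG00000261351, with 5.02 TPM with PABPC and 9.63 with PABPN, ENSG00000243389, with 8.86 and 5.02, and ENSG00000264808, with 5.03 and 7.02. Nearest below it were ENSG00000224817 (now LINC03046), with 4.98 and 5.61, ENSG00000239467, with 4.94 and 9.67, and ENSG00000272263, with 4.92 and 12.7. EPKM with PABPC was 0.0297, 0.134 and 0.0101 for the genes inside and 0.0149, 0.00833 and 0 for those outside, and with PABPN 0, 0.0368 and 0 inside and 0, 0.00957 and 0.0766 outside.

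EPKM was not used by the rule, although it comes from the same libraries. By median over the whole set, editing of the unnamed lncRNAs was lower than that of PCGs, which had higher TPM, and close between the IPs. Medians within bands of TPM are given below. The median EPKM was 0.0188 with PABPN, with quartiles of 0 and 0.0768, 0.0154 with PABPC, with quartiles of 0 and 0.0711, and 0 in the Input, with an upper quartile of 0.0288. Named lncRNAs had medians of 0.0124 with PABPN, 0.0218 with PABPC and 0.00556 in the Input, and PCGs 0.0334, 0.0501 and 0.0273. With PABPN, the upper quartile was 0.0523 for named lncRNAs and 0.0758 for PCGs. The mean there was 0.0508 for members, 0.0357 for named lncRNAs and 0.0520 for PCGs. With PABPC, the upper quartiles were 0.0624 and 0.0992, and the means 0.0444, 0.0438 and 0.0719. The difference of medians, PABPC IP minus PABPN IP, was -0.00347 for the members, 0.00934 for named lncRNAs and 0.0167 for PCGs. Its sign for the members was not stable. It was 0.00474 when both IP TPM values had to reach 10, 0.00166 without members that overlap a PCG on the same strand and 0.00227 without members that hold a small RNA gene.

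**Figure D2:**
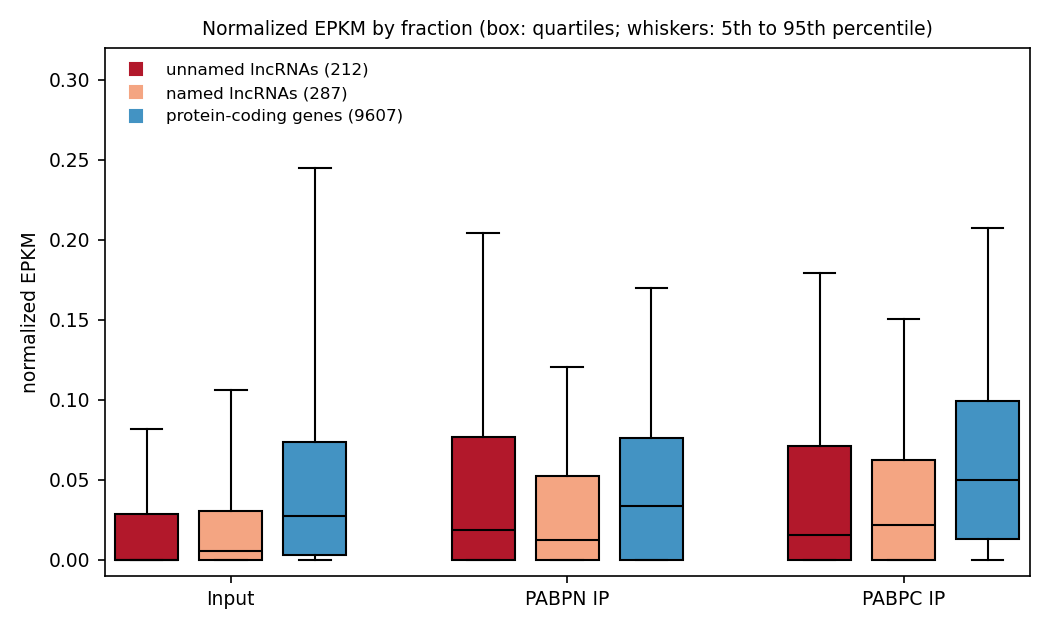
Normalized EPKM (y axis) in the Input, PABPN IP and PABPC IP for the 212 unnamed lncRNAs, 287 named lncRNAs and 9607 PCGs of the same TPM filter; boxes give the quartiles with the median as a line, and whiskers the 5th and 95th percentiles over genes. The members' median is 0 in the Input, 0.0188 in the PABPN IP and 0.0154 in the PABPC IP.

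Gene by gene, EPKM was higher with PABPC for 86 members, beside 55.5% of all genes, higher with PABPN for 92, beside 37.7%, and equal for 34. With 0.01 added to each EPKM, 57 members (26.9%) were at least 2-fold higher with PABPC, where 35.9% of all genes were, and 68 (32.1%) were at least 2-fold higher with PABPN, where 21.7% of all genes were. With 0.1 added, the shares of members were 7.55% with PABPC, beside 9.09% of all genes, and 8.96% with PABPN, beside 4.11%. Of the 287 named lncRNAs, with 0.01 added, 104 (36.2%) reached 2-fold higher EPKM with PABPC and 70 (24.4%) with PABPN.

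The share above 0 was lower for the members than for all genes in each fraction. In the Input 100 of 212 (47.2%) had an EPKM above 0, beside 76.5% of all genes, with PABPC 125 (59.0%), beside 81.2%, and with PABPN 127 (59.9%), beside 72.1%. Named lncRNAs had 61.0%, 68.6% and 62.0% in the same order. In all 3 fractions 35 members were above 0 (16.5%), against 48.6% of all genes, 50.5% of PCGs and 27.5% of named lncRNAs. A further 86 members (40.6%) were above 0 in 2 fractions, beside 35.1% of all genes, 75 (35.4%) in 1, beside 13.9%, and 16 (7.55%) in none, beside 2.45%. Of the 75, 34 were above 0 with PABPN only, 23 with PABPC only and 18 in the Input only, where 3.81%, 5.82% and 4.27% of all genes were. An EPKM above 0.1 was found for 33 members with PABPC (15.6%), beside 24.3% of all genes, for 35 with PABPN (16.5%), beside 16.8%, and for 8 in the Input (3.77%), beside 17.6%. Above 0.1 in both IPs were 8 members, beside 7.30% of all genes, and 0 were above it in all 3 fractions, beside 4.47%.

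The shares were also compared within bands of abundance and of length, which were chosen after seeing the data. At 5 to 10 TPM with PABPN, 24 of 38 members (63.2%) and 63.7% of PCGs were above 0 there, at 10 to 20 TPM 38 of 65 (58.5%) and 66.7%, at 20 to 50 TPM 50 of 86 (58.1%) and 72.6%, and at 50 or more 15 of 23 (65.2%) and 77.1%. In the PABPC IP 60 of 108 members (55.6%) and 76.9% of PCGs were above 0 at 5 to 10 TPM, 43 of 72 (59.7%) and 80.3% at 10 to 20 TPM, 20 of 28 (71.4%) and 82.6% at 20 to 50 TPM, and 2 of 4 and 86.6% at 50 or more. In the Input, 38 of 104 members under 5 TPM were above 0 (36.5%), against 65.0% of PCGs, 39 of 79 at 5 to 10 TPM (49.4%), against 72.1%, and 15 of 20 at 10 to 20 TPM (75%), against 77.5%. At 20 to 50 TPM in the Input it was 5 of 5 members, against 82.4% of PCGs, and at 50 or more 3 of 4, against 89.1%. Named lncRNAs in the same bands, from low to high TPM, had 63.3%, 54.9%, 67.5% and 64.3% with PABPN. With PABPC they had 70.6%, 62.3%, 61.8% and 81.8%, and in the Input 56.4%, 56.8%, 76.7%, 76.2% and 76.9%. Among genes with under 1000 exonic bases, the share above 0 with PABPC was 61.7% for 81 members and 63.0% for 119 PCGs, with PABPN 59.3% and 63.0%, and in the Input 43.2% and 72.3%. Median EPKM with PABPC was 0.0204 for those members and 0.0604 for those PCGs. At 1000 to 3000 bases the shares of 95 members and of PCGs above 0 were 51.6% and 74.7% with PABPC, 56.8% and 66.1% with PABPN and 46.3% and 74.9% in the Input. At 3000 bases or more they were 71.4% and 84.7% with PABPC, 71.4% and 74.6% with PABPN and 60.0% and 78.99% in the Input, for 35 members. Named lncRNAs had, with PABPC, with PABPN and in the Input, 63.4%, 61.0% and 43.9% under 1000 bases. At 1000 to 3000 bases they had 55.9%, 54.1% and 55.9%, and at 3000 or more 80.7%, 68.9% and 70.4%. The part of abundance and length in the lower shares was not tested.

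**Figure D3:**
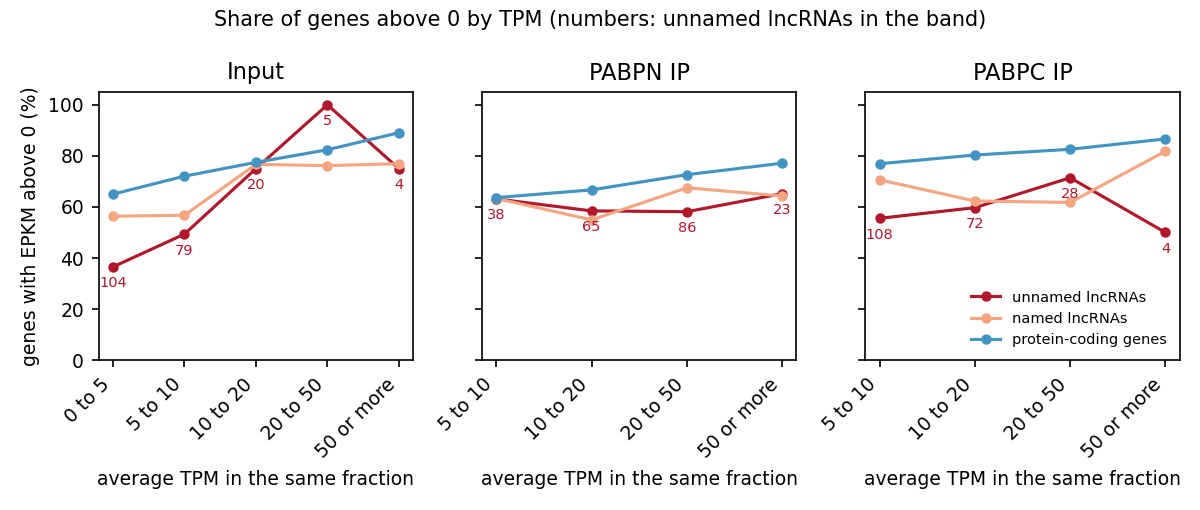
Percent of genes with EPKM above 0 (y axis) by average TPM in the same fraction (x axis), for unnamed lncRNAs, named lncRNAs and PCGs; the small numbers give the unnamed lncRNAs in each band. At 5 to 10 TPM, 63.2% of members and 63.7% of PCGs are above 0 in the PABPN IP, against 55.6% and 76.9% in the PABPC IP.

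By position, the share of members above 0 with PABPN was 47.9% for the 48 with no overlap, 59.1% for divergent starts, 62.0% for opposite-strand overlap and 75% for the 20 with same-strand overlap. Named lncRNAs of these classes had another order, with 60.0%, 65.8%, 57.5% and 52.6%. In the PABPC IP the same classes had 60.4%, 54.5%, 63.0% and 55.0% for members and 68.6%, 65.8%, 65.8% and 63.2% for named lncRNAs. The 7 members that hold a small RNA gene had 6 above 0 with PABPN and 2 with PABPC, and the 40 such named lncRNAs 30 and 34. Median log2 TPM of PABPC IP over PABPN IP was -0.84 with no overlap, -0.89 for divergent starts, -0.53 for opposite-strand overlap and -0.83 for same-strand overlap. Named lncRNAs had -0.74, -0.69, -0.46 and -0.61 in the same order. With a small RNA gene inside it was -1.31 for members and -0.94 for named lncRNAs.

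PCG partners that passed the same TPM filter were set beside their members, a comparison added after seeing the data. For 38 members with a divergent partner, the median TPM with PABPN was 23.9 for the lncRNA and 59.5 for the PCG, and the log2 PABPC IP over PABPN IP ratio was lower for the lncRNA in 26 of 38 pairs. Median EPKM with PABPC was 0.0191 for the lncRNAs and 0.0506 for their partners, and with PABPN 0.0143 and 0.0399. Over 103 pairs on opposite strands, which involve 93 members, the ratio was lower for the lncRNA in 62, and median EPKM was 0.0122 and 0.0542 with PABPC and 0.0213 and 0.0309 with PABPN. In 15 same-strand pairs the ratio was lower for the lncRNA in 11, with median EPKM of 0.000714 and 0.0830 with PABPC and 0.0420 and 0.0383 with PABPN. Median log2 ratios of lncRNAs and partners were -0.96 and -0.48 for divergent pairs and -0.64 and -0.38 on opposite strands. On the same strand they were -0.88 and -0.07. All members had -0.77 and all PCGs of the filter -0.19. The share of unrelated pairs in which the lncRNA is lower was not computed.

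The highest EPKM with PABPC belonged to ENSG00000272004, a gene of 400 exonic bases that starts 313 bases from the kinase gene CDK11B and overlaps SLC35E2B on the opposite strand. It had 0.350 with PABPC, 0.0479 in the Input and was listed at 0 with PABPN, although its TPM was 33.4 with PABPN and 6.24 with PABPC. ENSG00000254682, opposite DHCR7, followed with 0.304 with PABPC, 0.170 with PABPN and 0.0696 in the Input. DHCR7 itself had 0.0700, 0.0747 and 0.0333 in the same order. ENSG00000265393, opposite the helicase gene RECQL4, had 0.265 with PABPC and 0.0562 in the Input and was listed at 0 with PABPN. ENSG00000261071, divergent from NOL7 at 145 bases and overlapping SIRT5 on the opposite strand, had 0.259, and TARS1-DT, divergent from the threonyl-tRNA synthetase gene TARS1 at 47 bases, had 0.257, both listed at 0 in the other fractions. Of these 5, ENSG00000272004, ENSG00000265393 and ENSG00000261071 also had the 3 largest rises from PABPN to PABPC.

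In the PABPN IP, ENSG00000267698 stood first with 0.457, against 0.0607 in the Input and a listed 0 with PABPC. It has 4 exons, starts 254 bases from ALKBH6, overlaps CLIP3 and THAP8 on the opposite strand, and had 20.1 TPM with PABPN and 14.2 with PABPC. MBTPS1-DT, a single exon of 542 bases that starts 88 bases from the protease gene MBTPS1, had 0.340 with PABPN, 0.0301 with PABPC and a listed 0 in the Input. MBTPS1 itself had 0.0475 with PABPN and 0.0413 with PABPC. ENSG00000272942, with no overlap, had 0.335 with PABPN and 0.0310 in the Input and was listed at 0 with PABPC. These members had the 3 largest falls from PABPN to PABPC. GATD1-DT had 0.333 with PABPN, 0.0849 with PABPC and 0.0686 in the Input. ENSG00000267939 had 0.331, 0.208 and a listed 0, and was the member with the highest PABPN IP value among the 8 above 0.1 in both IPs.

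**Figure D4:**
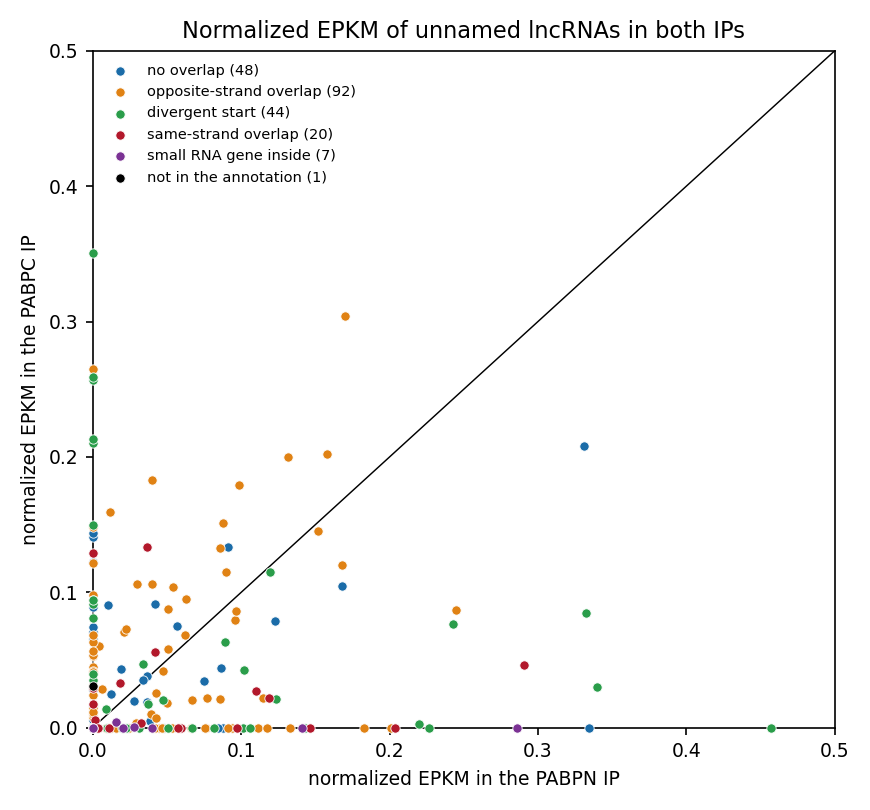
Normalized EPKM of each unnamed lncRNA in the PABPN IP (x axis) and the PABPC IP (y axis), coloured by position class, with the line of equality. Points on an axis are listed at 0 in the other IP; 92 members lie on the PABPN IP side of the line and 86 on the PABPC IP side.

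Input values were lower at the top of the range. ENSG00000262202, which holds SNORD3D, had 0.206 in the Input, 0.0204 with PABPN and a listed 0 with PABPC. ENSG00000263731, a single exon of 2682 bases with no overlap, had 0.194 in the Input, 0.123 with PABPN and 0.0790 with PABPC. Its TPM was 29.2, 38.5 and 35.8, so that it stood slightly higher with PABPN as deposited (log2 ratio -0.10) and slightly higher with PABPC relative to all genes (0.12). ENSG00000272667, divergent from AMMECR1L at 589 bases, had 0.172 in the Input against 0.00870 with PABPN and 0.0140 with PABPC. ENSG00000276529 had 0.172 in the Input, 0.0277 with PABPC and a listed 0 with PABPN. ENSG00000260257 had 0.141 in the Input and 0.144 with PABPC and was listed at 0 with PABPN.

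**Figure D5:**
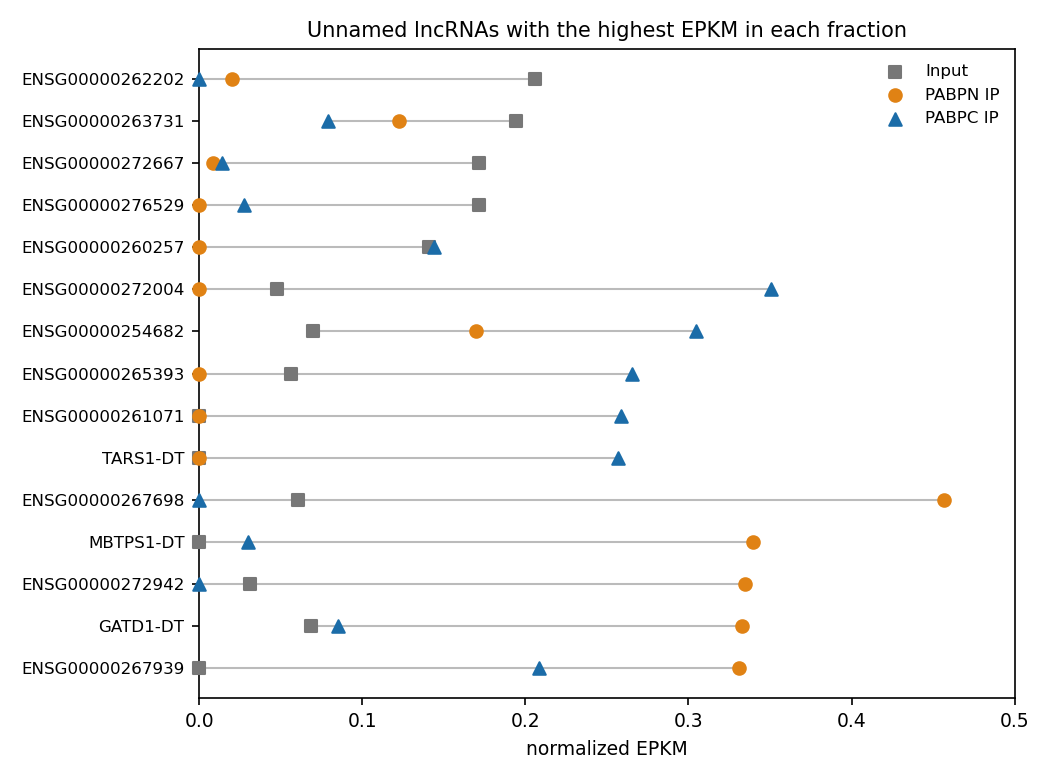
Normalized EPKM (x axis) in the Input (squares), PABPN IP (circles) and PABPC IP (triangles) of the 5 unnamed lncRNAs with the highest EPKM in each fraction, 15 in all; lines join the lowest and the highest value of a gene. Among the 5 highest in the PABPC IP, ENSG00000254682 is the one with a PABPN IP value above 0.

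For scale, well-known lncRNAs were read from the same table. MALAT1 and NEAT1, which stay in the nucleus, had 208 and 55.8 TPM with PABPN and 10.3 and 3.25 with PABPC, with log2 ratios of -4.27 and -3.91. TUG1 had -2.06, SNHG1 -0.95, EPB41L4A-AS1 -0.97, OIP5-AS1 -0.64, NORAD -0.52 and GAS5 -0.40, while DANCR had 0.66. EPKM with PABPC was 0.243 for NORAD, a cytoplasmic RNA that binds PUMILIO proteins, 0.150 for OIP5-AS1 and 0.123 for EPB41L4A-AS1. It was 0.0585 for TUG1, 0.0150 for DANCR, 0.00761 for SNHG1, 0.00495 for NEAT1, 0.00451 for MALAT1 and 0.00193 for GAS5. With PABPN, EPKM was higher than with PABPC for DANCR (0.0977), TUG1 (0.0679), SNHG1 (0.0584), GAS5 (0.0446) and MALAT1 (0.0214). It was lower for EPB41L4A-AS1 (0.0917), NORAD (0.0530), OIP5-AS1 (0.00159) and NEAT1 (a listed 0). In the Input, NORAD had 0.225, and DANCR, SNHG1 and GAS5, spliced host genes of small nucleolar RNAs, had 0.220, 0.188 and 0.171, with the other 5 between 0.0128 and 0.0880. The highest EPKM with PABPC was 0.350 among the members, 0.454 among the 287 named lncRNAs and 1.95 among PCGs, and with PABPN 0.457, 0.406 and 1.01.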

How the data were processed

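Reads were aligned by the authors to hg38 (STAR), counted with featureCounts 2.0.2 on a custom annotation made from GENCODE release 34 without stretches shared by several genes, and searched for C-to-U edits. The deposited EPKM is a signal from which control editing was taken off, with 1 value per gene and fraction. Deposited TPM values are sums of exonic and intronic TPM, averaged over samples. Which samples entered the averages, how values below 0 were handled and the strand setting are not given in the sources used here. Members and lists were chosen with earlier results of these data known. Medians, quartiles, shares and log2 ratios, with 0.5 added to TPM and 0.01 to EPKM, were computed. No statistical test was run. Named genes were the 5 highest in EPKM per fraction, in mean IP TPM and at each end of the TPM ratio, the 3 largest rises and falls in EPKM, and 3 genes on each side of the threshold. Positions and ends came from GENCODE release 44 on hg38, and 209 of 209 member ends read from the genome equalled the transcript sequence. The summaries were also tried on simulated data, and no result given here rests on that. Software was Python 3.11.15 with pandas 2.3.3 and NumPy 2.4.6 for values, SciPy 1.17.1 for intervals and matplotlib 3.10.9 for plots.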

Additional observations from a re-analysis of the deposited data

Results flagged for a closer look

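Of the 461 unnamed lncRNAs that have an EPKM but lack a TPM, and which the comparisons above therefore leave out, 317 had an EPKM above 0, the level of the subtracted control, in at least 1 fraction. In the PABPN IP 253 were above 0 (54.9%), with PABPC 99 (21.5%) and in the Input 71 (15.4%), with highest values of 0.343, 0.276 and 0.362. Their read support is unknown.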

How the results depend on the processing

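No paired analysis was possible because single replicates have no values of their own here, and for the same reason leaving out each replicate was not run. A count was taken as unmoved within a factor of 1.5, as were medians and differences of the same sign, and a share inside its 95% Wilson interval. Of 93 comparisons, 65 were unmoved, 25 moved and 3 changed sign.

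The difference of EPKM medians, -0.00347, turned to 0.00474 with a TPM of at least 10, 0.00166 without same-strand overlap and 0.00227 without small RNA genes inside, the last added after seeing the data. It was -0.00975 with a TPM of at least 1, -0.000562 without members that now have a symbol and -0.00638 as a difference of means. The cause was not tested.

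The EPKM median with PABPC, 0.0154, was 0 with a TPM of at least 1 and with no minimum, and the mean was 0.0444. With PABPN, the median of 0.0188 was 0.00975 and 0.00427 in the same order, and the mean 0.0508.

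The number of members was 678 with a TPM of at least 1, 100 with at least 10 and 1769 with no minimum, by construction. With a TPM of at least 1, the share above 0 was 29.5% in the Input and 49.3% with PABPC. With no minimum these were 18.9% and 29.5%, and 12.7% were at least 2-fold higher in EPKM with PABPC. The Input share was 59.0% with at least 10 and 36.3% with a threshold of 0.01. With 0.1 added to EPKM, 7.55% were at least 2-fold higher with PABPC and 8.96% with PABPN. Centring on all genes gave 0.061 for PABPC IP over Input, 0.59 for PABPN IP over Input and 29.2% of members at least 2-fold higher in TPM with PABPN; with TPM of at least 5 in the Input the last was 47.9%. The hexamer share was 54.5% in the last 100 bases. With no counts in the files, depth cannot be set against any of these values.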

Other observations

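Unnamed lncRNAs with a TPM that fell below the threshold in at least 1 IP, 1096 in number, had a median TPM of 2.87 with PABPN, 0.801 with PABPC and 0.5998 in the Input. Of these, 564 (51.5%) had an EPKM above 0 with PABPN, 298 (27.2%) with PABPC and 164 (15.0%) in the Input. The part of the lower TPM in these shares was not tested.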
